A study of Mus musculus with 7 samples.

Results

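Fibroblast growth factors (FGFs) act through receptor tyrosine kinases, RAS and the kinase ERK, and the pathway switches on target genes, several of whose products dampen it. HDAC1 peaks were examined at 8 FGF feedback target genes: the Sprouty genes Spry1, Spry2 and Spry4, the Sprouty-related genes Spred1 and Spred2, the ERK phosphatase gene Dusp6, and the ETS transcription factor genes Etv4 and Etv5. The members of the peak set were all peaks of the deposited list that overlapped the gene body of 1 of these genes with 20 kb added on each side, which gave 15 of 15347 peaks. HDAC1 takes acetyl groups off histone tails, and in ChIP-seq the DNA crosslinked to it is pulled down with an antibody and sequenced. The experiment used wild-type Swiss Webster embryos at E11.5 (40-44S, the number of somites), whose forelimb and hindlimb buds were dissected and pooled. There were 4 HDAC1 ChIP samples (antibody Abcam ab7028) and 3 inputs, which were made without antibody. Each sample combined limb buds of several litters and all cell types of the bud, so no value belongs to a single animal, to the forelimb or hindlimb, or to a cell type. The authors deposited 1 list of peak coordinates (mm10) for all samples, in rank order, with rank 1 first. It holds no height, read number or fold enrichment for a peak, so the depth behind a peak is unknown, no value has a replicate error, and differences in rank or length between genes could not be set against a spread. Coordinates give no check of the labelled tissue against its marker genes.

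In the limb bud, FGFs from the apical ectodermal ridge and the mesenchyme sustain outgrowth, and Dusp6, the Sprouty genes and Etv4 and Etv5 are widely used as readouts of that signal. Sprouty and Spred proteins lower signalling upstream of or at RAF, the DUSP6 phosphatase removes the activating phosphates of ERK in the cytoplasm, and ETV4 and ETV5 carry the signal into transcription. Histone deacetylases are often found at the promoters of transcribed genes as well as at repressed ones, so a peak alone does not give the state of a gene.

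All 8 genes had an HDAC1 peak at their own promoter, defined as the 2 kb before and the 1 kb after the transcription start site (TSS) of a coding transcript. Of 21851 protein-coding genes, 9630 (44.1%, 95% Wilson interval 43.4 to 44.7%) had one. Of the 15 peaks, 9 were promoter peaks and 6 were distal, which here means outside the promoter windows of the gene in whose window they lay. The distal peaks were at Spry1, Spry4, Spred2 and Dusp6. Distances are from the outermost TSS of the gene, along its direction of transcription. No window of the 8 genes contained the promoter of another protein-coding gene. Intervals cover counting over genes only, and genes are not biological replicates.

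Sequences are shown first for the 250 bases upstream of the RefSeq start of the 4 genes with promoter peaks among the first 500 ranks, since all of these bases lay inside the peak. They are reference sequence (RefSeq, GRCm38, which is mm10), read 5′ to 3′ on the gene's own strand. Capitals mark a match to 1 of 5 short motifs on either strand: CCGGAAG (ETS), TGANTCA (AP-1), TGGGTGGTC (GLI), GGGCGG (SP/KLF) and CACGTG (E-box). The windows are chr10:99262981-99263230 on the + strand for Dusp6, chr3:37639697-37639946 on the + strand for Spry1, chr14:105896820-105897069 on the - strand for Spry2 and chr2:117120821-117121070 on the + strand for Spred1.
Dusp6 upstream: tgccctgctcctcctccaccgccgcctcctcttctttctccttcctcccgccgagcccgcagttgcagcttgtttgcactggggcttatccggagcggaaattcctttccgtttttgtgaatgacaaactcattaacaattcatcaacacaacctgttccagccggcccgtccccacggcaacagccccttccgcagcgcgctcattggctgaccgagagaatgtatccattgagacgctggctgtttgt
Spry1 upstream: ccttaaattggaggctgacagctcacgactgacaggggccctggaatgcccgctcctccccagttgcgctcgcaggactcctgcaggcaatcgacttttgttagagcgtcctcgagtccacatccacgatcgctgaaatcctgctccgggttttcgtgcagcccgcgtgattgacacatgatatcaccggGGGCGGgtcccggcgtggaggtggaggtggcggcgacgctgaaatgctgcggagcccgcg
Spry2 upstream: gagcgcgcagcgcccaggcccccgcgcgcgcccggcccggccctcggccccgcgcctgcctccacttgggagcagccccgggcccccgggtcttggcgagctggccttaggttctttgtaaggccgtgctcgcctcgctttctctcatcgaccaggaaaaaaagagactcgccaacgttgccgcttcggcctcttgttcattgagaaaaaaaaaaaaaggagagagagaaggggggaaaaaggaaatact
Spred1 upstream: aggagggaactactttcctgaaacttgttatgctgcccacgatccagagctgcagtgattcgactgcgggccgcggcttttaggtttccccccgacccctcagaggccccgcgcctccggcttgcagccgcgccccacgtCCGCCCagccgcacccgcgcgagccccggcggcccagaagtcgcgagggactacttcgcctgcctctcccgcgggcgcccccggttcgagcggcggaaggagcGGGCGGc

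The SP/KLF letters, the core of a GC box, occurred 1 time upstream of Spry1 and 2 times upstream of Spred1, and no match to the 5 motifs was found in the windows of Dusp6 and Spry2. Among 32851 RefSeq promoters the same 250 bases held GGGCGG in 32.7%, CCGGAAG in 6.91%, TGANTCA in 6.75%, CACGTG in 6.02% and TGGGTGGTC in 0.225%. The median GC content of those promoters was 52.4%, below that of the windows shown, from 56.4% at Dusp6 to 70.8% at Spred1. Those promoters were taken with or without an HDAC1 peak, whereas the windows shown were chosen for lying inside a peak. Over all promoter peaks the central 300 bases had a median GC content of 67.7%. Upstream of Spred2 there was 1 GGGCGG match, and upstream of 1 of the starts of Etv5 there were 3. Spry4 and Etv4 had no entry in the promoter table.

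The central 300 bases of 3 distal peaks are shown next, because they stand for the main kinds of distal peak at these genes: beyond the 3′ end of Dusp6 (chr10:99268575-99268874), upstream of Spred2 (chr11:19920225-19920524) and inside an intron of Spred2 (chr11:19986725-19987024). All are given on the + strand, with the same capitals.
Dusp6 rank 3535: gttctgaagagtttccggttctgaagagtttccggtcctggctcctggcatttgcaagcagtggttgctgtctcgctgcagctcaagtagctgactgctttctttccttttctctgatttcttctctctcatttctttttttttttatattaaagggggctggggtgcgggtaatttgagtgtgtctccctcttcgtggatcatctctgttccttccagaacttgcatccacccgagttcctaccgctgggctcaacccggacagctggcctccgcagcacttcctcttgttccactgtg
Spred2 rank 10379: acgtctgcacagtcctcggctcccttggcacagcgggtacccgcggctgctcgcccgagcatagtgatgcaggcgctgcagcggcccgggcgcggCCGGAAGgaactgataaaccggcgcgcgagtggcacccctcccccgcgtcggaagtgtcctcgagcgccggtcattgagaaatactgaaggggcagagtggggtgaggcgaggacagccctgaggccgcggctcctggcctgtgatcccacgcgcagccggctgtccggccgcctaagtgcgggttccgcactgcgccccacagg
Spred2 rank 11240: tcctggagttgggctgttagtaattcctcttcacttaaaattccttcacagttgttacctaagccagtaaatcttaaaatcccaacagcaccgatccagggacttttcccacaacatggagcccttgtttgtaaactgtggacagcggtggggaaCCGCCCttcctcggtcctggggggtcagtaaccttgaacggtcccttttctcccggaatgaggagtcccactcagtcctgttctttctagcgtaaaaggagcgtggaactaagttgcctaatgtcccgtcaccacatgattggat

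The upstream Spred2 peak carried CCGGAAG, the letters bound by many ETS factors, and was the only one of the 15 peaks with this match in its centre. The intronic Spred2 peak carried GGGCGG on the - strand, and the Dusp6 peak held none of the 5 motifs. These matches describe the letters of the reference and are not binding data.

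Dusp6 had the best-ranked and longest peak of the set. Its promoter peak (chr10:99260800-99267399) held rank 22, was 6600 bp long and took position 15 by length among all 15347 peaks. It ran from 2431 bp upstream to 4168 bp downstream of the TSS and covered 97.9% of the 4259 bp gene body (chr10:99263231-99267489, + strand), 96.8% of its exonic bases and all 1143 bp of its coding sequence. Peaks of similar rank were shorter, with a median of 2050 bp over the 271 peaks no more than 250 ranks away, and the Dusp6 peak was longer than 94.8% of them.

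Another pair of peaks followed beyond the 3′ end of Dusp6. The nearer (chr10:99267550-99268099) was 550 bp long at rank 6488, separated from the promoter peak by 150 bp, and contained the TSS of the long noncoding RNA Gm48089. The farther (chr10:99268150-99269299) began 50 bp after it, was 1150 bp long and held rank 3535, the best rank of any distal peak at the 8 genes. Gm34921, a long noncoding RNA annotated on the opposite strand to Dusp6, has exon sequence under 414 bp of the nearer and 858 bp of the farther peak. Joined across gaps of up to 1000 bp, the 3 peaks formed 1 block of 8500 bp, position 20 by length among 12193 joined peaks of the genome.

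The Sprouty genes encode inhibitors of receptor tyrosine kinase signalling, and their peaks differed in length and rank. Spry1 had the best rank of the 3 genes and Spry2 the longest peak. The Spry1 promoter peak (chr3:37639600-37641199) was 1600 bp long at rank 43 and ran from 347 bp upstream to 1252 bp downstream of the TSS. It was shorter than most peaks of similar rank, being longer than 35.3% of the 292 peaks no more than 250 ranks away (median 2050 bp). It also contained the start of the gene model Gm42922 on the opposite strand.

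A 300 bp peak at rank 9270 lay 600 bp further on in the intron of Spry1 (chr3:37641800-37642099). Together the peaks covered 33.4% of the 4652 bp gene and none of the 939 bp of coding sequence, which lies in the last exon.

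The main Spry2 peak (chr14:105892750-105898149) was 5400 bp long at rank 140, position 35 by length in the list. It ran from 1330 bp upstream to 4069 bp downstream of the TSS. It covered 83.5% of the 4873 bp gene body, 61.5% of its exonic bases and all 945 bp of its coding sequence. Its length was 2.92 times the median of the 389 peaks of similar rank (1850 bp). A smaller promoter peak of 550 bp at rank 7879 (chr14:105898450-105898999) lay 300 bp farther upstream. No distal peak was listed for Spry2 within its window.

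Spry4, which is longer at 15169 bp, had a promoter peak of 1800 bp at rank 2241 (chr18:38600350-38602149), from 734 bp upstream to 1065 bp downstream of the TSS. The start of the noncoding RNA AC133601.1, annotated on the opposite strand to Spry4, lay inside that peak. The other Spry4 peak (chr18:38584150-38584649) was 500 bp long, lay beyond the 3′ end at 16766 to 17265 bp from the TSS and had rank 11610, the last of the 15.

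Dusp6 and Spry2 were thus alike in that the peak spanned most of a short gene and all of its coding sequence. The cover was less complete at Spry2, with 83.5% of the gene body against 97.9% at Dusp6. At least 50% of the gene body was covered in 236 of the 9630 genes with a promoter peak (2.45%), and the median of those 9630 genes was 1.87% against 6.39% over the 8 feedback genes. Gene length enters this share directly: the other short gene, Spry1, was covered to 33.4%, and the genes over 50 kb (Spred1, Spred2 and Etv5) to between 1.92% and 2.43%. A promoter peak of at least 5000 bp occurred at Dusp6 and Spry2 among the 8 genes, and at 46 of all 21851 genes (0.211%, interval 0.158 to 0.281%).

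**Figure D1:**
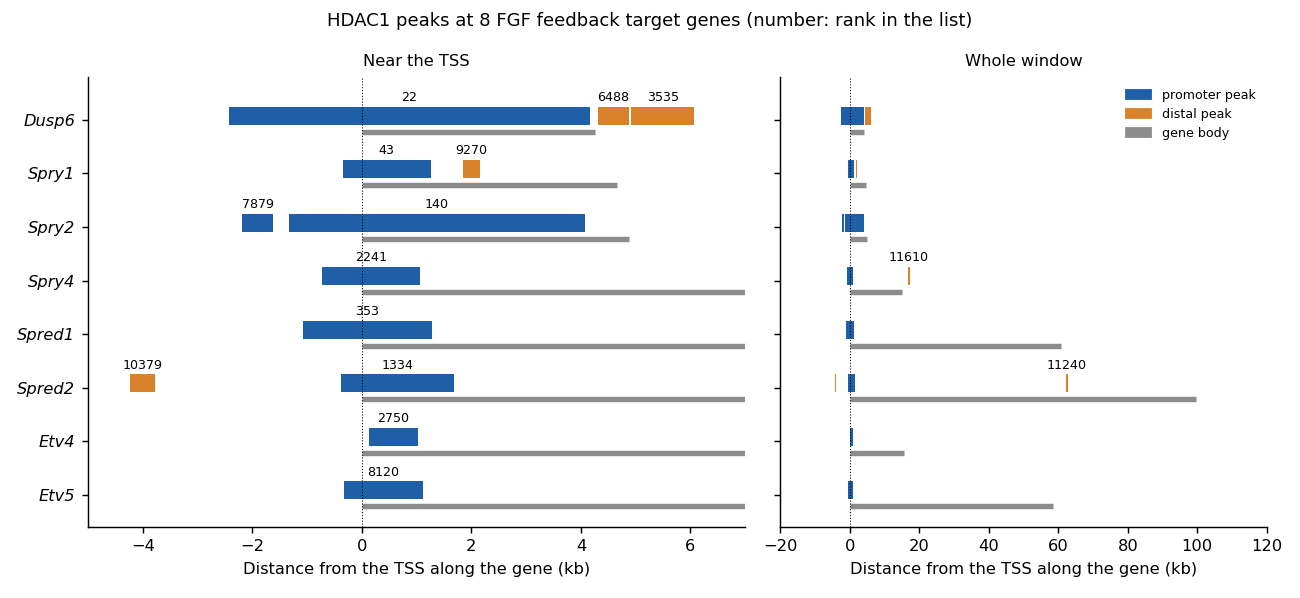
HDAC1 peaks (blue for promoter, orange for distal) and gene bodies (grey) of the 8 genes, drawn by distance from the TSS in kb along the direction of transcription, with the rank of each peak above it; the left panel shows the surroundings of the TSS and the right panel the whole gene. The blue bar at Dusp6 reaches almost to the end of the gene and that at Spry2 covers most of it, while those at Spry4, Spred1, Spred2, Etv4 and Etv5 end between 1021 and 1674 bp downstream of the TSS.

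Spred1 and Spred2 encode membrane-associated inhibitors that act with neurofibromin on RAS. Both promoters had peaks of over 2000 bp, and Spred1 ranked ahead of Spred2. The Spred1 peak (chr2:117120300-117122649) was 2350 bp long at rank 353 and extended 1074 bp upstream and 1275 bp downstream of the TSS. It was the sole peak in a window of 100906 bp, and the nearest other peak lay 67371 bp beyond the gene.

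The Spred2 promoter peak (chr11:19924000-19926049) was 2050 bp long at rank 1334, with 375 bp upstream and 1674 bp downstream of the TSS. Spred2 also had a pair of distal peaks. The peak upstream of the gene spanned positions -4225 to -3776 bp from the TSS (chr11:19920150-19920599, 450 bp, rank 10379) and contained no annotated start. The other was intronic, 62125 to 62874 bp downstream of the TSS (chr11:19986500-19987249, 750 bp, rank 11240). The intronic peak was longer than 95% of the 500 peaks nearest to it in rank, whose median was 300 bp.

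Etv4 and Etv5 encode closely related ETS factors of the PEA3 group, and each had 1 promoter peak and no distal peak. The Etv4 peak (chr11:101784350-101785249) was 900 bp long at rank 2750 and began 122 bp downstream of the outermost TSS. Etv4 was the only one of the 8 genes whose best-ranked peak did not span its outermost TSS, and other annotated starts were not compared. The Etv5 peak (chr16:22438600-22440049) was 1450 bp long, ran from 330 bp upstream to 1119 bp downstream, and had rank 8120, the last of the best promoter ranks of the 8 genes. At that rank long peaks were rare: it was longer than 99.4% of the 500 peaks nearest in rank, whose median was 450 bp. The Etv4 peak was close to its neighbours in rank, whose median was 850 bp.

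By best promoter rank the order was Dusp6 (22), Spry1 (43), Spry2 (140), Spred1 (353), Spred2 (1334), Spry4 (2241), Etv4 (2750) and Etv5 (8120). By length it was Dusp6 (6600 bp), Spry2 (5400 bp), Spred1 (2350 bp), Spred2 (2050 bp), Spry4 (1800 bp), Spry1 (1600 bp), Etv5 (1450 bp) and Etv4 (900 bp). Spry1 changed place most between the orders, and no other gene moved by more than 1 place. The first 4 genes of the rank order were all among the first 500 ranks, against 500 of all 21851 genes (2.29%, interval 2.1 to 2.5%). The median best promoter rank was 843.5 over the 8 genes and 5174.5 over the 9630 genes with a promoter peak, and the median of the longest promoter peak was 1925 bp against 650 bp. Across all peaks, longer peaks held earlier ranks (Spearman's rho = -0.75 over 15347 peaks of the same libraries), so rank and length are not separate measures.

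**Figure D2:**
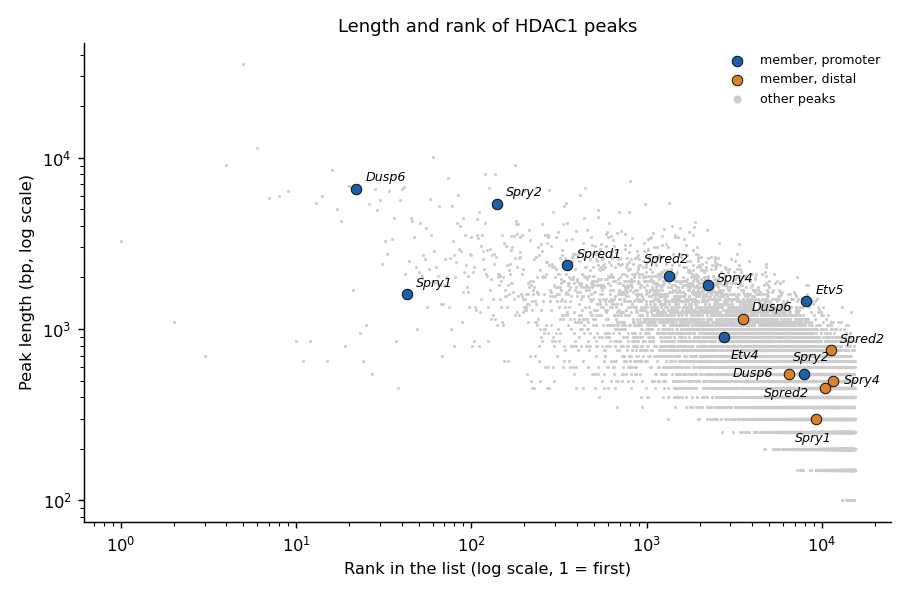
Length in bp against rank (both on log axes) for the 15 peaks at the 8 genes, named by gene (blue for promoter, orange for distal), and for all other peaks of the list (grey). Dusp6 at rank 22 and Spry2 at rank 140 lie near the upper edge of the grey points, Etv5 at rank 8120 lies above nearly all points of its rank, and the distal peaks lie between ranks 3535 and 11610.

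Promoter peaks were longer and earlier in rank than distal peaks by their medians, with overlapping ranges. The 9 promoter peaks had a median length of 1800 bp (550 to 6600 bp) and a median rank of 1334 (22 to 8120), beside 550 bp and 6369 over all 10757 peaks at a protein-coding promoter. The 6 distal peaks had a median length of 525 bp (300 to 1150 bp) and a median rank of 9824.5 (3535 to 11610), beside 300 bp and 10285.5 over the 4590 other peaks of the list. The first 50% of the ranks held 7 of the 9 promoter peaks at the 8 genes, with Etv5 and the smaller Spry2 peak outside, and 2 of the 6 distal peaks, both of them at Dusp6. For the whole list those shares were 58.7% of promoter peaks and 29.6% of the others.

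The 15 peaks covered 26400 bp, of which 22700 bp were in promoter peaks and 12000 bp (45.5%) in the longest peaks of Dusp6 and Spry2 alone. By annotation, 6520 bp lay in exons of the 8 genes, 2206 bp of these in coding sequence, 10059 bp in introns and 9821 bp outside the gene body. Coding bases were nearly all those of Dusp6 and Spry2, with 60 bp at Etv4, 32 bp at Spred1 and 26 bp at Spred2. In 7 of the 8 genes the best-ranked promoter peak spanned the outermost TSS, and in each of the 7 it reached farther downstream than upstream. Among all genes with a promoter peak, 5354 (55.6%) had a best-ranked peak over the TSS, and 4270 of these (79.8%) reached farther downstream.

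Distal peaks were counted against the same windows of other genes. A peak in the window outside the own promoter was present at 4 of the 8 genes (Spry1, Spry4, Spred2 and Dusp6) and at 8090 of 21851 genes (37%, interval 36.4 to 37.7%). In many windows such a peak is the promoter peak of a neighbour. A peak at no protein-coding promoter at all was present at the same 4 of the 8 genes and at 3132 of 21851 genes (14.3%, interval 13.9 to 14.8%), or at 1983 of the 9630 genes with a promoter peak (20.6%). The median window was 55.4 kb for the 8 genes and 57.4 kb for all genes. There were 2.89 peaks per 100 kb in the median member window, from 0.991 at Spred1 to 6.78 at Dusp6, and 2.21 in the median window of genes with a promoter peak. Of the 6 distal peaks, those of Spry1 and Dusp6 lay 150 to 750 bp from the promoter peak. Joined across gaps of up to 1000 bp they became part of the promoter block, which left distal peaks at Spry4 and Spred2 only. The upstream Spred2 peak lay 3400 bp from its promoter peak, and the peaks farther away (Spry4 and intronic Spred2) had the last ranks of the set.

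Beyond the windows, the next peak lay between 29379 bp (Etv4) and 218948 bp (Spry1) from the gene. A margin of 50 kb in place of 20 kb added 5 peaks of 150 to 600 bp, 2 each at Dusp6 and Etv4 and 1 at Spry4, with ranks from 4417 to 14944. Of the Etv4 additions, 1 was at the promoter of the neighbour Dhx8. None was added at Spry1, Spry2, Spred1, Spred2 or Etv5.

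Base composition was taken from the central 300 bases of each peak. The promoter peaks of the 8 genes had a median GC content of 66.7% (49.7 to 81.7%) and a median ratio of observed to expected CpG of 0.825 (0.604 to 1.10), beside 67.7% and 0.844 over all promoter peaks. Spred1 had the most GC-rich centre (81.7%), and the long Spry2 peak, whose centre lies 1370 bp inside the gene, the least (49.7%). The distal peaks had a median GC content of 49.7% (42.0 to 70.0%) and a CpG ratio of 0.479 (0.0759 to 0.926), beside 52.5% and 0.379 over all other peaks.

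Among the distal peaks, the upstream Spred2 peak stood out with a GC content of 70.0% and a CpG ratio of 0.926, in the range of the promoter peaks, and its GC content was above that of 90.8% of distal peaks. The Dusp6 peak nearest the 3′ end was at the other extreme, with 42.0% GC and a CpG ratio of 0.0759. Motif matches in the centres were few: CCGGAAG in 1 of 15 peaks (8.54% of all peaks), GGGCGG in 3 of 15 (48.3%; Spred1, Etv5 and intronic Spred2), CACGTG in 1 of 15 (6.70%; the Spry1 promoter peak), and TGANTCA and TGGGTGGTC in none (3.15% and 0.300% of all peaks). Over whole peaks, where longer peaks offer more letters, GGGCGG was in 9 of 15 (61.4% of all peaks), CCGGAAG in 4 (16.3%), CACGTG in 3 (14.2%), TGANTCA in 3 (7.06%) and TGGGTGGTC in none (0.645%).

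**Figure D3:**
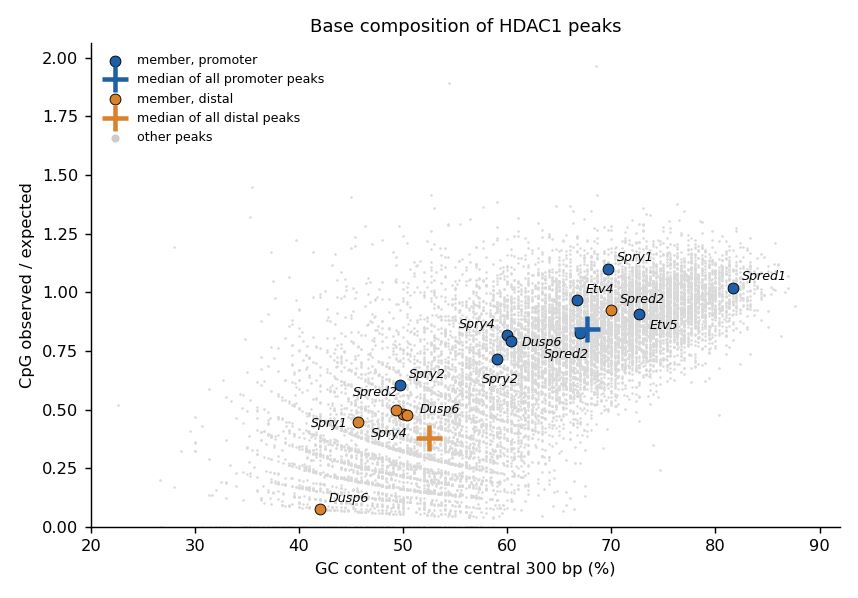
GC content in percent against the ratio of observed to expected CpG in the central 300 bp of each peak, for the 15 peaks at the 8 genes (blue for promoter, orange for distal, named by gene), with crosses at the medians of all promoter and all distal peaks and all other peaks in grey. The upstream Spred2 peak (70.0% GC) lies among the promoter peaks, and the Dusp6 peak with 42.0% GC lies lowest of the 15.

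The other genes of the pathway were taken from a list of 55, of which 54 were found in the annotation and Spry3 was not. A promoter peak was present at 47 of the 54 genes (87.0%), beside 44.1% of all protein-coding genes. The median best rank was 3397, and 5 genes were among the first 500 ranks, beside 2.29% of all protein-coding genes. The 5 include Fgfr2, whose rank was 1022 without transcripts over 1 Mb. The other inhibitors and feedback genes were the group closest in function to the 8 genes, and all 12 had a promoter peak. Their best ranks were those of Dusp7 (79, 2700 bp) and Dusp4 (524, 4950 bp), which encode phosphatases of the same family as DUSP6, and Il17rd (789, 1050 bp), which encodes the FGF antagonist SEF. The group median of the best ranks was 3649. For these and the pathway genes below, the length beside a rank is that of the longest promoter peak of the gene. It need not be the peak that holds the rank.

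Of 11 ligand and receptor genes, 8 had a promoter peak, and Fgfr4 had no peak in its window. The receptor genes led the group, with Fgfr1 at rank 44 (2500 bp), directly after Spry1 in the list, Fgfr2 at 352 and Fgfr3 at 1395 (1900 bp). The Fgfr2 rank comes from an annotated transcript that starts at the promoter of Ctbp2, and without transcripts over 1 Mb it was 1022 (2900 bp). Among the adaptor, RAS, RAF, MEK and ERK genes 17 of 19 had a promoter peak, with the exchange factor gene Sos1 (430, 1150 bp) and the adaptor gene Shc1 (2128, 1350 bp) among the best ranks, and Araf had no peak in its window. Their longest promoter peaks had a median of 650 bp, equal to that of all genes with a promoter peak.

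Among the nuclear ETS and immediate early genes 10 of 12 had a promoter peak. The leading ones were Erf (71, 2550 bp), which encodes an ETS repressor controlled by ERK, Ets1 (814, 550 bp) and Elk3 (1930, 1600 bp). Distal peaks at no protein-coding promoter were present at 6 of these 12 genes, at 4 of the 12 other inhibitors, at 4 of the 11 ligands and receptors and at 1 of the 19 core genes. The share was 14.3% over all protein-coding genes and 20.6% over those with a promoter peak. The ligand and receptor count includes Fgfr2, whose annotated gene gave a window of 3000900 bp with 7 such peaks. Dusp6 thus held the best promoter rank and the longest promoter peak among the 8 feedback genes and the 54 others.

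**Figure D4:**
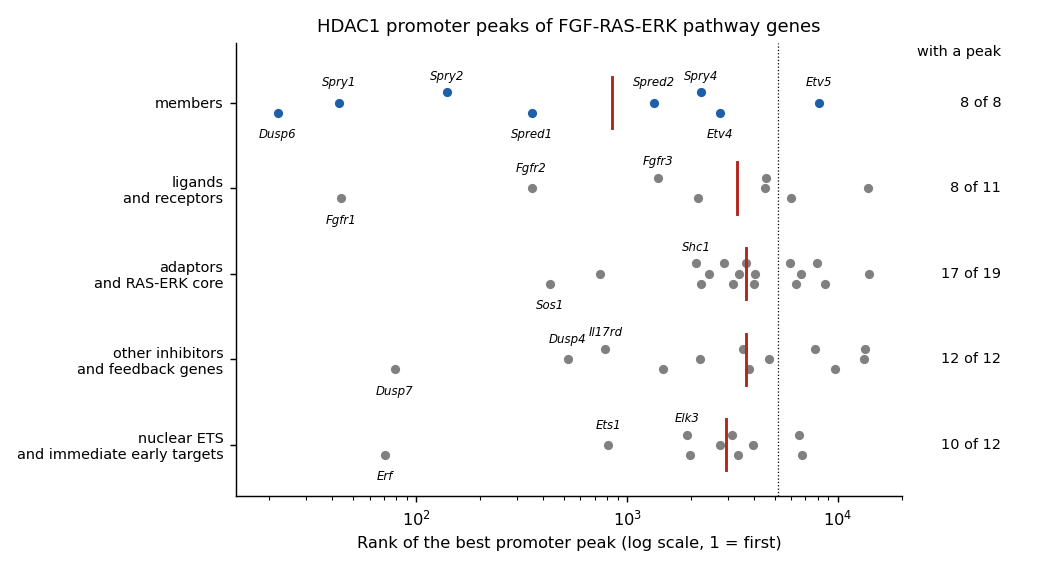
Rank of the best promoter peak (log axis, 1 is first) for the 8 feedback genes (blue) and for the other pathway genes by group (grey), each point 1 gene, with the group median as a red line, the median of all genes with a promoter peak as a dotted line and the number of genes with a promoter peak at the right. The median of the 8 genes is at 843.5 and those of the other groups lie between 2939 and 3673, with Fgfr1, Erf and Dusp7 before rank 100 as well.

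The genes whose peaks were most like those of Dusp6 were named by the distance over 3 percentiles among the 9630 genes with a promoter peak. These were best promoter rank, summed length of all promoter peaks in bp and number of distal peaks. The nearest genes were Bcl11a (distance 0.119, rank 34, 6400 bp), Pdgfra (0.262, rank 45, 6000 bp) and Arid1a (0.897, rank 100, 5300 bp), each with 2 distal peaks in the window. The bp values are sums over the promoter peaks of a gene and need not be the length of 1 peak.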

How the data were processed

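HDAC1 ChIP-seq was done by the authors on 4 ChIP samples and 3 inputs of pooled E11.5 limb buds. Per the submitters' processing notes reads were aligned with Bowtie2 2.2.5 to mm10, and the paper's methods name CisGenome for peak calling. The authors deposited 1 list of peak coordinates in bp (chromosome, start, end), called over all samples together. Per the labels and methods the measure behind the rank order is not given in the sources used here, and enrichment values that the study's legend mentions were not used. Peaks below the authors' threshold are not listed, so a missing peak does not show that HDAC1 is absent.

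All 15347 peaks were read with starts and ends counted from 1 and included. Lengths were multiples of 50 bp. Peaks were intersected with GENCODE M21 basic genes (GRCm38, which is mm10) at an overlap of at least 1 bp, and sequences came from RefSeq GRCm38.p6. The overlap procedure was tested on simulated intervals and matched for 2000 of 2000. Since the list holds no value per sample, no test over samples was run; shares of all protein-coding genes carry 95% Wilson intervals. The genes, the pathway list, the motifs and the rules for named genes were chosen with earlier results of these data known. Named pathway genes were the 3 best promoter ranks of each group and genes with no peak in the window; 1 of them is not reported here. Alternatives were other margins, promoter windows, overlaps, merging, start readings, transcripts and the first 50% of the list. The software was Python 3.11.15 with matplotlib 3.10.9, scipy 1.17.1, numpy 2.4.6 and pandas 2.3.3.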

Additional observations from a re-analysis of the deposited data

How the results depend on the processing

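Across 8 alternatives, 51 of 63 values stayed within their limits and 12 moved. The limits were wide for ranks and lengths. The median rank of the member peaks went from 3535 to 6556 with margins of 50 kb and to 1334 with the first 50% of the list. Their median length went from 1150 bp to 675 bp and 1800 bp in those settings, and to 1800 bp with merging. All these shifts were counted as within limits. With margins of 10 kb all 15 peaks were kept, and genes with a distal peak made up 25.17% of all genes in place of 37.02%; with 50 kb the distal peaks rose from 6 to 11 and that share to 56.58%, as a wider window holds more peaks. With only the first 50% of the list, 9 of the 15 peaks and 2 distal peaks were left, Etv5 lost its promoter peak, and the shares of all genes were 30.03% with a promoter peak (44.07% otherwise) and 23.55% with a distal peak. Merging peaks within 1000 bp left 3 distal peaks and a distal share of 35.88%. Promoter windows of 5 kb each side left 2 distal peaks (Spry4 and intronic Spred2) and gave shares of 46.22% and 33.86%. Requiring 50% of a peak inside the promoter window removed the long peaks of Dusp6 and Spry2, which lay mostly outside it. At 6600 bp the Dusp6 peak was too long to pass wherever it lay, given a window of 2 kb and 1 kb. The distal peaks then numbered 8 and 7 genes were left, with Spry2 counted through its peak at rank 7879. Leaving out transcripts over 1 Mb, chosen after the values were seen, moved the best rank of Fgfr2 from 352 to 1022. Searching whole peaks, also chosen after the values were seen, raised the peaks with GGGCGG from 3 to 9, CCGGAAG from 1 to 4, CACGTG from 1 to 3 and TGANTCA from 0 to 3. The list gives no depth. No paired analysis was possible because the list has no value for any sample, and for the same reason none was left out.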
